A study of Mus musculus with 6 samples.

Results

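The 41 genes described here encode the machinery that a cell assembles after DNA replication, in G2, and uses to divide, in mitosis. They were listed by name and are grouped here by role, and the brightest probe set on average over all arrays stood for each gene. Of the 41 genes, 40 had a probe set annotated to them alone, out of 12393 such genes on the array, and 35 of the 40 were bright enough to be tested, out of 8190. Ccnb1, which encodes cyclin B1, had no probe set in the annotation table used, so its expression is not analysed here. Its promoter is among those described below. RNA was measured on single-colour arrays in CD4+CD25+ T cells, the fraction that holds the regulatory T cells (Treg), after magnetic separation. One group of 3 arrays came from mice with the genotype MBD2–/–, here called knockout, which lack the methyl-CpG-binding protein Mbd2, and the other group of 3 came from wild-type mice. Both groups were of the Balb/c background, and the study described its samples as independent. Age, sex, treatment and the number of mice behind a sample are not given in the labels, and the knockout is stated for the mouse, not for Treg alone. All values are log2 expression values, on which a difference of 1 is a doubling.

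A cell enters mitosis when cyclin-dependent kinase 1 (Cdk1), bound to A-type and B-type cyclins, is switched on. The mitotic kinases Plk1, Aurka and Aurkb then build the spindle, kinesin motors and microtubule-associated proteins move the chromosomes on it, and the spindle checkpoint holds back the anaphase-promoting complex until every chromosome is attached. Cdc20 and Ube2c let that complex mark the cyclins for destruction, after which the cell pinches apart in cytokinesis. Transcripts of these genes are low in resting cells and accumulate together as cells approach division, so their summed RNA is commonly read as a sign of the share of cells that are cycling. In resting cells a repressor complex known as DREAM, which contains the pocket protein p130 (gene Rbl2), holds many of them down through a promoter element called CHR, while the factor NF-Y binds CCAAT boxes in the same promoters. Among T cells of an unimmunised mouse, Treg are known to hold a cycling fraction.

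The promoters of the members carried both kinds of motif more often than promoters at large. Promoter windows of 300 bases, from 250 before to 50 after a gene's start, were taken from RefSeq (GRCm38.p6) and were found for 34 of the 41 genes, 36 windows in all. The CHR letters TTTGAA or TTCGAA, on either strand, were present in 28 of the 36 windows (77.8%), against 17.6% of 21263 promoters of protein-coding genes and 19.2% of all 32851 promoters. CCAAT, on either strand, was present in 30 windows (83.3%), against 38.2% of protein-coding and 37.4% of all promoters, and 20 windows (55.6%) held more than 1 copy, against 12.8% and 11.7%. CCAAT was not particular to the members, as it stood in 72.2% of windows of S phase genes and 61.4% of those of other mitosis genes. Both motifs stood in 26 member windows (72.2%), against 7.11% of protein-coding and 7.53% of all promoters. The 2 kinds of motif have different letters, though neighbouring matches can share a base at their ends. A match is a description of the letters and shows no binding. Stretches of 250 bases upstream of the start are given for 4 members with high values in the comparison that follows and, as a contrast, for Birc5, whose stretch holds neither motif. They run 5′ to 3′ in the direction of the gene, and capitals mark CHR and CCAAT letters on either strand. The stretches are chr7:135716380-135716629 on the minus strand, chr2:164769679-164769928 on the plus strand, chr11:99024190-99024439 on the minus strand, chr10:69352913-69353162 on the minus strand and chr11:117848987-117849236 on the plus strand.
Mki67: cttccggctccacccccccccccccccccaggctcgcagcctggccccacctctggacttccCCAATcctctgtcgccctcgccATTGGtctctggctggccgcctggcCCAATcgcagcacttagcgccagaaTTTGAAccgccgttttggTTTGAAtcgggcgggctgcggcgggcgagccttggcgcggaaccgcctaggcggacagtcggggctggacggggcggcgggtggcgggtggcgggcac
Ube2c: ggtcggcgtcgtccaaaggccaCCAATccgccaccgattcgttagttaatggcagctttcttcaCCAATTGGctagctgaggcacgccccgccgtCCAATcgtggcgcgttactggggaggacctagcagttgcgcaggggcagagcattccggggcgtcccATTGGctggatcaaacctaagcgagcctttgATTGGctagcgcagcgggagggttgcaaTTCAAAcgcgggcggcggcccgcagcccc
Top2a: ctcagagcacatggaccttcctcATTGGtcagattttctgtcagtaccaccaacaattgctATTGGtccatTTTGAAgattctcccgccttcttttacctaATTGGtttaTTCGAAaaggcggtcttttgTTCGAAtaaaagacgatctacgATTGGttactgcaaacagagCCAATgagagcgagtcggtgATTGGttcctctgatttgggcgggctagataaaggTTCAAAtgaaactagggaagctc
Cdk1: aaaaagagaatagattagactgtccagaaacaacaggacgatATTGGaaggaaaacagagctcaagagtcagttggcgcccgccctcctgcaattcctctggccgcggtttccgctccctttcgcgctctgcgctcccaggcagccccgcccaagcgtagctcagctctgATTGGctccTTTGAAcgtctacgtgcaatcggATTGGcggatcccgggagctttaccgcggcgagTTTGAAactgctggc
Birc5: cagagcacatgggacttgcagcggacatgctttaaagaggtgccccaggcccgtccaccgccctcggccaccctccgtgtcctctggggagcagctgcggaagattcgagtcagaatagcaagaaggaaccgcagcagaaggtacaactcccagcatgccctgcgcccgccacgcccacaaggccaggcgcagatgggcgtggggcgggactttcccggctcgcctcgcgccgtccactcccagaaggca

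In these stretches the start of the CHR match nearest to the gene lay 29 bases before the start in Ube2c, 23 in Top2a, 15 in Cdk1 and 98 in Mki67. Upstream of it stood 6 CCAAT boxes in Ube2c, 6 in Top2a, 3 in Cdk1 and 3 in Mki67. Across all members, 25 of 36 windows (69.4%) had a CHR match starting between 60 bases before and 40 after the start, against 4.71% of protein-coding promoters; these limits were set after the positions had been seen. E2F letters, TTTCCCGC or TTTGGCGC on either strand, were in 2 member windows (5.56%), against 2.02% of protein-coding promoters.

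**Figure D1:**
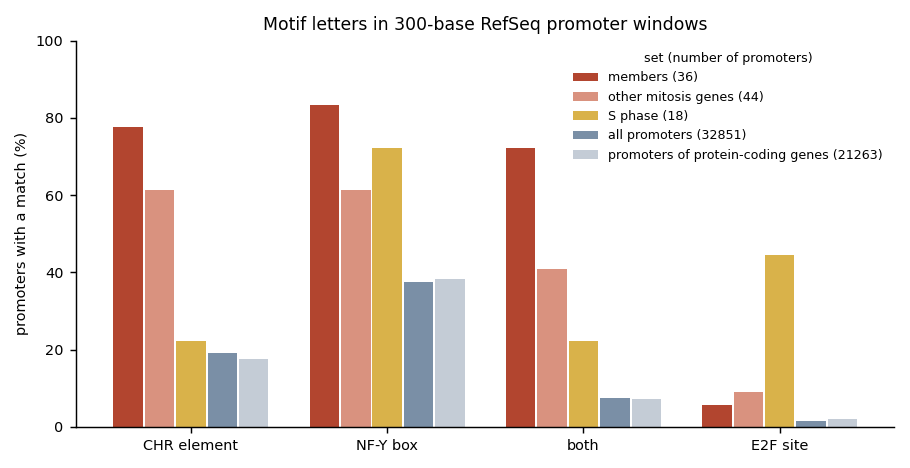
Share of 300-base RefSeq promoter windows (y axis, percent) that hold the letters of a CHR element, of an NF-Y box (CCAAT), of both, or of an E2F site, for the members, for other mitosis genes, for S phase genes, for all promoters and for those of protein-coding genes. CHR letters stood in 77.8% of member windows, 61.4% of windows of other mitosis genes and 22.2% of S phase windows, whereas E2F letters stood in 44.4% of S phase windows. CCAAT letters stood in 83.3% of member windows, 61.4% of windows of other mitosis genes and 72.2% of S phase windows.

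The array of wild-type replicate 3 stood apart. Its correlation with the other arrays across probe sets was 0.749 to 0.767, against 0.956 to 0.997 among those other arrays, of which knockout replicate 2 had the lowest values. The members are therefore compared both with all 6 arrays and with the 5 arrays left without wild-type replicate 3. Mbd2 was lower in every knockout array than in every wild-type array on both of its probe sets, at 5.93, 5.71 and 6.14 in knockout replicates 1 to 3 against 8.80, 8.66 and 6.93 in wild-type replicates 1 to 3 on the brighter one. The labels do not say which part of Mbd2 is missing in these mice. The 7 T cell and Treg markers, Cd3e, Cd4, Il2ra and Foxp3 among them, were above the brightness cutoff on all arrays. With 5 arrays all 7 were lower in knockout without overlap (median log2 difference -0.64, Foxp3 -1.19), beside 31.8% of all tested probe sets. Limma called 0 of the 7, beside 0.729% of probe sets called lower. With 6 arrays 6 of the 7 were lower (median -0.30, Foxp3 -0.58), where 63.2% of all tested probe sets were higher. Without knockout replicate 2 and wild-type replicate 3 limma called 6 of the 7 lower, beside 10.3% of probe sets.

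Genes of G2 and mitosis were modestly higher in knockout cells across nearly the whole set, but no member passed the test in either fit. With 5 arrays, 34 of the 35 tested members were higher in knockout, with a median log2 difference of 0.39, a factor of 1.31, while the median over all 13575 tested probe sets was -0.06 and 39.3% of them were higher. With 6 arrays, 33 of 35 were higher, with a median of 0.59 against 0.15 over all probe sets, of which 63.2% were higher. In the limma fit with Benjamini-Hochberg adjustment over all probe sets, 0 members had an adjusted p under 0.05 with 6 arrays, where 0.103% of probe sets were called higher and 0% lower. With 5 arrays, limma again called 0 members, beside 0.67% of probe sets called higher and 0.729% lower, 1.4% in all. At an unadjusted p under 0.05, 16 members were higher and 0 lower with 5 arrays, beside 6.95% of probe sets higher and 14.6% lower. With 6 arrays, 6 members were higher and 0 lower at that level, beside 3.48% and 0.597% of probe sets. In 17 members every knockout array lay above every wild-type array, with 6 arrays as with 5, and with 5 arrays Kif23 joined them. Over all tested probe sets 10.4% showed this with 6 arrays and 15.6% with 5. The reverse order was shown by 0 members with 6 arrays, beside 5.72% of probe sets, and by 1 with 5 arrays, Smc4, beside 31.8%. The lists were drawn up with earlier results of these data known, so these counts describe the members and are no separate test of them. In bulk RNA, a different number of cycling cells and a different amount of these transcripts per cell cannot be told apart.

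**Figure D2:**
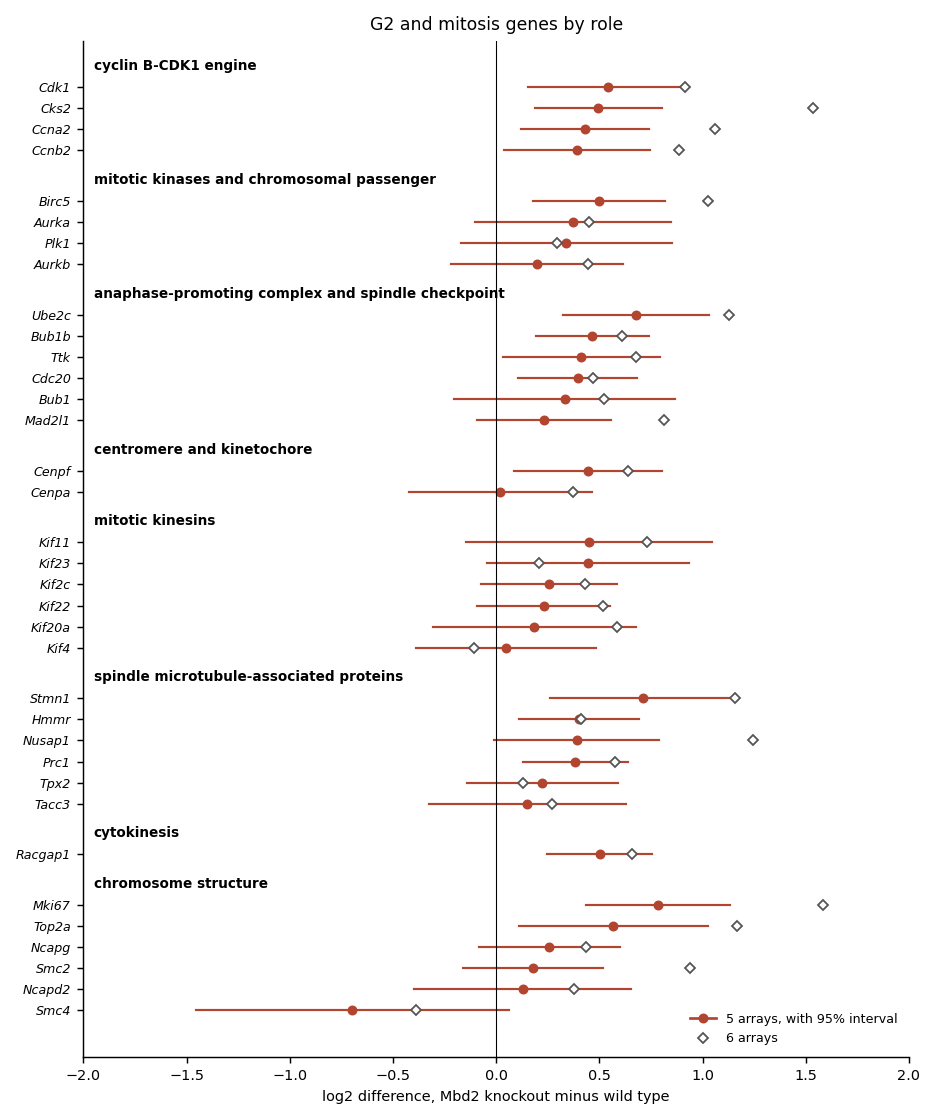
Log2 difference, Mbd2 knockout minus wild type (x axis), for the 35 tested members grouped by role (y axis). Filled points with 95% intervals are from the limma fit of 5 arrays without wild-type replicate 3, and open diamonds are the differences with 6 arrays. All but Smc4 lie above 0 with 5 arrays, and the differences with 6 arrays reach 1.59 for Mki67.

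Chromosome structure genes held both the largest positive difference and the only negative one of the 5-array fit. Mki67, which encodes the antigen Ki-67 that coats mitotic chromosomes and is widely stained to count dividing cells, stood at 9.07, 8.85 and 9.07 in knockout replicates 1, 2 and 3, against 8.04, 8.39 and 5.81 in wild-type replicates 1, 2 and 3. The groups did not overlap, and the lowest wild-type value was that of replicate 3. The 5-array log2 difference was 0.78, a factor of 1.72 (95% interval 0.44 to 1.13, limma adjusted p = 0.0611), and with 6 arrays it was 1.59 (SE 0.67, limma adjusted p = 0.829). The 6-array adjusted p was at or above that value for all 35 tested members. Top2a, the topoisomerase that untangles sister chromatids, was at 9.41, 8.80 and 9.10 in knockout against 8.45, 8.61 and 6.73 in wild type. The groups were again apart, with a 5-array difference of 0.57 (interval 0.11 to 1.03, limma adjusted p = 0.171) and a 6-array difference of 1.17. Condensin genes differed less. Smc2, Ncapd2 and Ncapg, which encode subunits of the complex that compacts chromosomes, differed by 0.18, 0.13 and 0.26 with 5 arrays and by 0.94, 0.38 and 0.44 with 6, and their groups overlapped.

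Smc4, which encodes the partner of Smc2 in condensin, was lower in knockout. Its levels were 10.84, 9.89 and 10.87 in knockout replicates 1, 2 and 3, against 11.22, 11.24 and 10.31 in wild-type replicates 1, 2 and 3. Knockout replicate 2 was the lowest array, and wild-type replicate 3 lay between the knockout arrays. The log2 difference was -0.70 with 5 arrays (interval -1.46 to 0.06, limma adjusted p = 0.259) and -0.39 with 6. All 3 probe sets of Smc4 gave the same sign, at -0.70, -0.59 and -0.63 with 5 arrays. This gene was singled out after its values had been seen.

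In the cyclin and Cdk1 group, every knockout array lay above every wild-type array in all 4 tested genes. Over all tested probe sets 10.4% showed this with 6 arrays and 15.6% with 5. Cdk1 itself was at 7.49, 7.05 and 7.39 in knockout, against 6.68, 6.86 and 5.64 in wild type. Its 5-array difference was 0.54, a factor of 1.45 (interval 0.15 to 0.93, limma adjusted p = 0.141), and it was 0.92 with 6 arrays. Ccna2, which encodes the cyclin that carries cells from S phase into mitosis, was at 8.12, 7.88 and 8.04 in knockout against 7.46, 7.71 and 5.70 in wild type. Its groups did not overlap and differed by 0.43 with 5 arrays (interval 0.12 to 0.74) and 1.06 with 6. Cks2, a small subunit that docks Cdk1 onto its targets, reached 9.76, 9.49 and 9.63 in knockout, against 9.02, 9.24 and 6.01 in wild type. The 5-array difference was 0.49 (limma adjusted p = 0.113), and with wild-type replicate 3 included it was 1.54 with an SE of 0.85. Ccnb2, which encodes a B-type cyclin, differed by 0.39 with 5 arrays (interval 0.04 to 0.74) and 0.89 with 6, again without overlap. Cdc25c, the phosphatase that activates Cdk1, was under the brightness filter, with levels from 4.93 to 5.30 in knockout and from 4.93 to 5.62 in wild type.

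The mitotic kinases were less clearly separated. Plk1, the polo-like kinase of mitotic entry and spindle assembly, was at 7.55, 6.92 and 7.41 in knockout and 6.81, 7.09 and 7.08 in wild type. Knockout replicate 2 lay among the wild-type arrays, and the 5-array difference of 0.34 had an interval from -0.17 to 0.85 (limma adjusted p = 0.387), beside 0.30 with 6. Aurka, the spindle pole kinase, and Aurkb, the kinase of the chromosomal passenger complex, differed by 0.37 and 0.20 with 5 arrays and by 0.45 and 0.44 with 6, with overlap in each. Birc5, which encodes survivin, the passenger subunit that brings Aurkb to the centromere, was at 7.77, 7.53 and 7.84 in knockout against 7.13, 7.30 and 5.63 in wild type. Here the groups were apart, with a difference of 0.50, a factor of 1.41 (interval 0.18 to 0.82, limma adjusted p = 0.118), and of 1.03 with 6 arrays. Nek2, a centrosome kinase, was under the filter, at 5.02 to 5.13 in knockout and 4.61 to 4.85 in wild type.

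Among genes of the anaphase-promoting complex and the spindle checkpoint, all 6 were higher in knockout in both fits. Ube2c, the ubiquitin-conjugating enzyme that works with the complex, was at 8.80, 8.52 and 8.62 in knockout against 7.80, 8.13 and 6.62 in wild type. Its difference of 0.68 with 5 arrays, a factor of 1.60, had an interval from 0.33 to 1.03 (limma adjusted p = 0.082), and the 6-array difference was 1.13. Cdc20, the activator of the complex, was at 8.23, 7.93 and 8.12 in knockout against 7.69, 7.70 and 7.48 in wild type. Wild-type replicate 3 lay close to the other wild-type arrays on this probe set, and the differences were 0.39 with 5 arrays and 0.47 with 6. On another tested Cdc20 probe set they were 0.29 and 1.27, without overlap. On a further one they were 0.23 and 0.03, and wild-type replicate 3 lay above the knockout arrays. Bub1b, a checkpoint protein that restrains Cdc20, was at 6.73, 6.50 and 6.58 in knockout against 6.07, 6.21 and 5.71 in wild type. No array crossed the gap, and the 5-array difference was 0.46 (interval 0.19 to 0.74, limma adjusted p = 0.101), beside 0.61 with 6. Ttk, the kinase that starts checkpoint signalling, differed by 0.41 with 5 arrays and 0.68 with 6 without overlap. Bub1 and Mad2l1, further checkpoint genes, differed by 0.33 and 0.23 with 5 arrays and by 0.52 and 0.81 with 6, with overlap.

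All 6 spindle proteins tested and Racgap1, the 1 cytokinesis gene tested, were higher in knockout in both fits. Stmn1, which encodes stathmin, a protein that destabilises microtubules, was at 10.15, 9.66 and 10.20 in knockout and 9.23, 9.36 and 7.95 in wild type. The 5-array difference of 0.71, a factor of 1.64, had an interval from 0.26 to 1.16 (limma adjusted p = 0.115), and with 6 arrays the difference was also 1.16. Racgap1, the GTPase-activating protein of the central spindle that directs cytokinesis, was at 7.01, 7.07 and 6.93 in knockout against 6.42, 6.59 and 6.03 in wild type. Its knockout arrays lay within an SD of 0.07 (n = 3) of each other, and the difference of 0.50 had an interval from 0.25 to 0.76 (limma adjusted p = 0.0771), beside 0.66 with 6 arrays. Prc1, which bundles the microtubules of the central spindle, was at 7.29, 7.30 and 7.11 in knockout against 6.88, 6.82 and 6.27 in wild type. Like Racgap1, it was not lowest in knockout replicate 2 among the knockout arrays, and it differed by 0.38 with 5 arrays and 0.58 with 6. On the other tested Prc1 probe set the difference was 0.30 with 5 arrays and 0.12 with 6, and wild-type replicate 3 lay above the knockout arrays. Hmmr, a spindle-associated hyaluronan receptor, was at 6.59, 6.38 and 6.42 in knockout against 5.96, 6.17 and 6.03 in wild type. All 3 wild-type arrays were close, and the difference was 0.40 with 5 arrays and 0.41 with 6. On the other tested Hmmr probe set the difference was 0.05 with 5 arrays and 0.003 with 6, with overlap. Nusap1, which stabilises spindle microtubules, differed by 0.39 with 5 arrays and 1.24 with 6, and Tpx2 and Tacc3, partners of Aurka, by 0.22 and 0.15 with 5 arrays and 0.13 and 0.27 with 6.

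Cenpf, a kinetochore protein, was at 6.28, 5.98 and 6.40 in knockout, against 5.73, 5.82 and 5.19 in wild type. Its groups were apart and differed by 0.44 with 5 arrays (interval 0.09 to 0.80) and 0.64 with 6. The other tested Cenpf probe set differed by 0.02 with 5 arrays and -0.81 with 6, with overlap. Cenpa, the histone variant that marks centromeres, differed by 0.02 with 5 arrays and 0.37 with 6, with overlap. The 6 mitotic kinesins had differences from 0.05 for Kif4 to 0.45 for Kif11 with 5 arrays, and from -0.11 for Kif4 to 0.73 for Kif11 with 6. Kif23, the kinesin partner of Racgap1, was at 7.14, 6.49 and 6.95 in knockout against 6.36, 6.47 and 7.13 in wild type, so wild-type replicate 3 was its only wild-type array above a knockout array. Kif20a, Kif22 and Kif2c differed by 0.19, 0.23 and 0.26 with 5 arrays and by 0.59, 0.52 and 0.43 with 6, each with overlap. Ect2 and Anln, which drive the cleavage furrow, and Cenpe, a kinetochore kinesin, were under the filter, with levels between 4.75 and 5.50 in knockout and between 4.31 and 5.27 in wild type. The filter was set on the mean over 6 arrays at 5.18, and Cdc25c, at 5.177, lay just under it. No tested member had a group mean under that value.

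**Figure D3:**
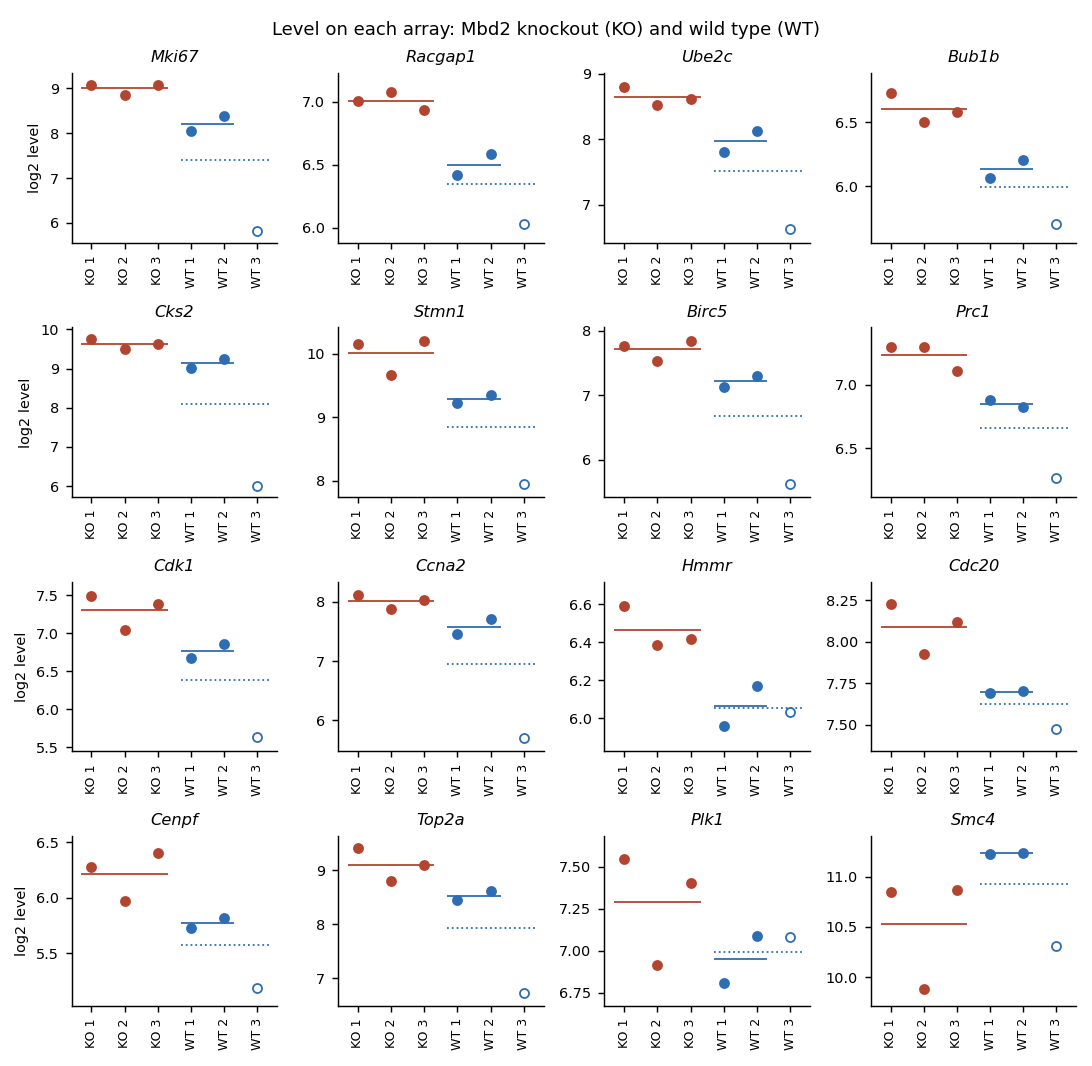
Log2 level (y axis, a different range in each panel) of 16 members on each array, knockout in red and wild type in blue, with wild-type replicate 3 as an open circle. Solid lines are means of the knockout arrays and of wild-type replicates 1 and 2, and dotted lines are means of all 3 wild-type arrays; the knockout arrays lie above the wild-type arrays in all panels except Plk1 and Smc4.

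The members moved together from array to array, within groups as well as between them. Relative to the mean of wild-type replicates 1 and 2, the median member was at 0.53, 0.08 and 0.40 in knockout replicates 1, 2 and 3, and at -0.80 in wild-type replicate 3. The median over all tested probe sets on these arrays was -0.04, -0.14, -0.03 and -0.74. Knockout replicate 2 was below the other knockout arrays in 33 of 35 members, against 55.4% of all tested probe sets. Wild-type replicate 1 was below wild-type replicate 2 in 31 of 35, against 48.6%. In wild-type replicate 3 the members spread from -3.13 to 0.71 around the other wild-type arrays, and 29 of 35 had their lowest value there, against 63.8% of all tested probe sets. It was the lowest of the wild-type arrays in 30 members, against 70.7%, and the highest of all arrays in 1, Kif4, against 22.1%. Knockout replicates 1 and 3 lay above wild-type replicates 1 and 2 in 33 of 35 members, beside 26.4% of probe sets. Knockout replicate 2 did so in 18 of 35, beside 30.1%.

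**Figure D4:**
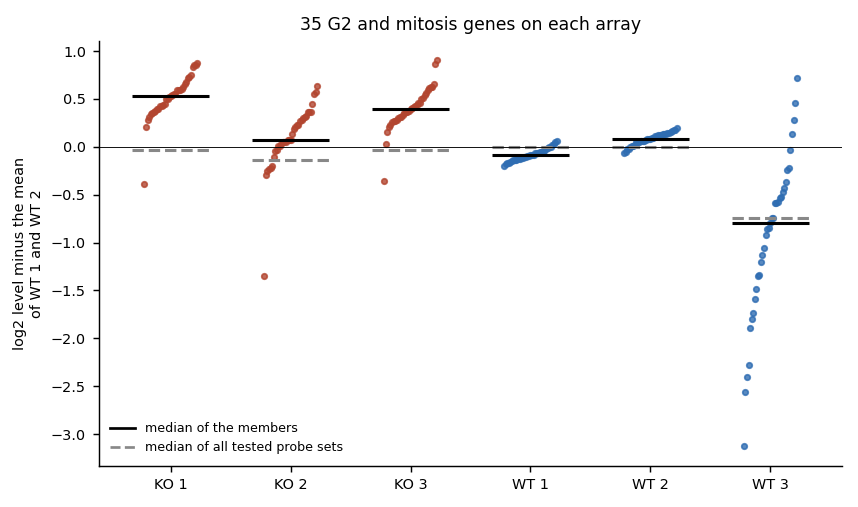
Log2 level of each of the 35 tested members (points, sorted within an array) minus its mean in wild-type replicates 1 and 2 (y axis), for knockout (KO) and wild-type (WT) arrays (x axis). Solid lines are medians of the members, 0.53, 0.08 and 0.40 in knockout replicates 1, 2 and 3, and dashed lines are medians of all tested probe sets.

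The number of members that passed the test differed with the treatment of knockout replicate 2 and wild-type replicate 3. Without replicate 2 alone, limma called 0 members on the other 5 arrays, beside 0% of all probe sets. Without both arrays it called 28 of the 35 members, 27 higher and 1 lower, with a median log2 difference of 0.48. That fit had 34 of 35 members higher, beside 42.9% of all probe sets. It called 18.7% of all probe sets, 8.37% higher and 10.3% lower, so its threshold was passed far more often throughout, and each of its groups held 2 arrays. In it Mki67 differed by 0.86 (limma adjusted p = 0.00598), Stmn1 by 0.88 (adjusted p = 0.00136) and Cdk1 by 0.67 (adjusted p = 0.00591), while Smc4 was the member called lower, at -0.37 (adjusted p = 0.0172). The members not called there were Bub1, Cenpa, Kif22, Kif4, Tpx2, Ncapd2 and Ncapg.

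Markers of other cell types differed between the same arrays. Neutrophil and granulocyte markers had a mean log2 level of 9.85 to 10.57 over 9 genes in knockout arrays and 5.61 to 6.63 in wild-type arrays. With 5 arrays 8 of the 9 (Camp, Ngp, Ltf, Lcn2, S100a8, S100a9, Mmp8 and Mmp9) were called higher, beside 0.67% of all tested probe sets. With 6 arrays 4 of the 9 (Camp, Ngp, Ltf and Lcn2) were called higher, beside 0.103%. Markers of granulocyte precursors, cells of the bone marrow that divide, had a mean of 6.19 to 6.93 over 6 genes in knockout and 5.42 to 5.58 in wild type, and 0 of the 5 tested were called. Mpo, the myeloperoxidase of those precursors, was at 8.36, 6.82 and 7.51 in knockout replicates 1, 2 and 3, against 4.89, 5.58 and 5.10 in wild type. Prtn3, Ctsg and Elane, proteases of the same granules, were higher too, by 1.95, 1.52 and 0.77 with 5 arrays. Gfi1, a transcription factor of the same list, went the other way, at 6.70, 6.80 and 6.81 in knockout against 7.65, 7.33 and 5.65 in wild type, a difference of -0.72 with 5 arrays (limma adjusted p = 0.0581) and -0.11 with 6. In wild type the precursor and thymocyte lists were highest in replicate 3. The members had their lowest mean level there, at 6.92, 7.08 and 6.06 in wild-type replicates 1, 2 and 3. Among knockout arrays the precursor list was lowest in replicate 2 and highest in replicate 1, as the members were, and the thymocyte list had the same order. In the precursor list Mpo, Prtn3, Ctsg and Elane had this order, while Gfi1 was lowest in replicate 1 and Ms4a3, not tested, in replicate 3. The mature neutrophil list was instead highest in knockout replicate 2, and so were the lists for mononuclear phagocytes (6.75 to 7.91 in knockout, 5.07 to 5.71 in wild type, 8 genes), B cells (7.44 to 7.99 in knockout, 5.75 to 6.71 in wild type, 7 genes) and plasma cells (9.13 to 10.54 in knockout, 7.12 to 8.81 in wild type, 5 genes). T cell and Treg markers, which were lower in knockout with 5 arrays while the members were higher, had a mean of 9.50, 8.75 and 9.53 over 7 genes in knockout replicates 1, 2 and 3, against 9.99, 9.93 and 8.84 in wild-type replicates 1, 2 and 3. Among these lists Lyz2 and Csf1r of the phagocytes and Spib of the B cells were called higher with 5 arrays, and only Lyz2 with 6. Thymocyte markers had a mean of 5.86, 5.19 and 5.39 over 5 genes in knockout replicates 1, 2 and 3, against 5.08, 5.09 and 5.26 in wild-type replicates 1, 2 and 3, and Rag2 was under the brightness cutoff on all arrays. Only 2 of these 5 genes, Dntt and Cd8b1, were tested, and Ptcra was highest among knockout arrays in replicate 2. Erythroid markers were at 5.20 to 5.41 over 7 genes in knockout and 5.03 to 6.20 in wild type. No marker was at 0 on this scale, which does not show that each was detected. Pax5, Klf1, Car1 and several others had means under the brightness cutoff and were not tested. The part of these cells in the differences of the members was not tested.

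**Figure D5:**
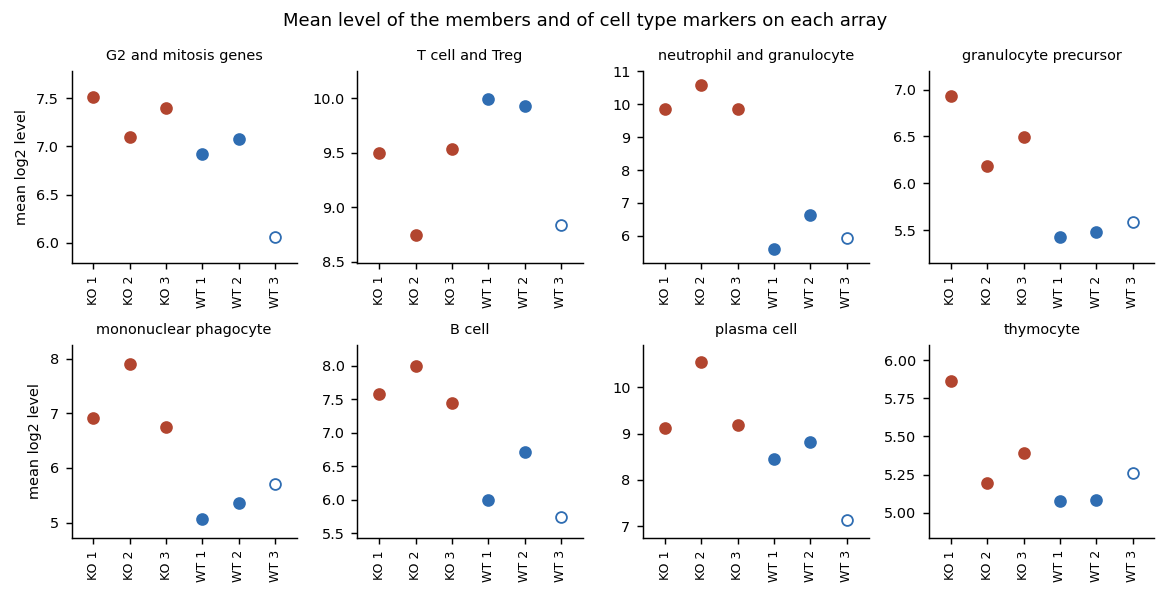
Mean log2 level (y axis, a different range in each panel) of the 35 tested members and of the genes of 7 marker lists on each array, knockout (KO) in red and wild type (WT) in blue, with wild-type replicate 3 as an open circle. The members and the T cell, granulocyte precursor and thymocyte markers are lowest among knockout arrays in replicate 2, where neutrophil, mononuclear phagocyte, B cell and plasma cell markers are highest.

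Most other genes of mitosis outside the member list showed the same direction. Of 48 such genes, 34 had a probe set and 32 were tested. In each fit 28 were higher in knockout, with medians of 0.26 with 5 arrays and 0.36 with 6. Over all tested probe sets 39.3% were higher with 5 arrays and 63.2% with 6. The 4 lower with 5 arrays were Pttg1 (-0.65), Zwint (-0.35), Pkmyt1 (-0.19) and Cdc25b (-0.15), all but Cdc25b without overlap. Limma called 0 of them in either fit. Cks1b, the sister gene of Cks2, was at 9.96, 9.92 and 10.11 in knockout against 9.31, 9.41 and 7.12 in wild type, a 5-array difference of 0.63 (interval 0.38 to 0.89, limma adjusted p = 0.053). Spc25, a subunit of the kinetochore complex that grips microtubules, differed by 0.62 with 5 arrays. Wee1, the kinase that holds Cdk1 inactive, and Ncapg2, a subunit of the second condensin, differed by 0.39 and 0.36. Genes of DNA replication and S phase pointed the same way, with 17 of 18 tested genes higher and a median of 0.31 with 5 arrays, and 18 of 18 with a median of 0.67 with 6. The largest 5-array differences among the 4 named were 0.61 for Rrm2, a ribonucleotide reductase subunit (limma adjusted p = 0.0821), and 0.53 for Prim1, a primase subunit, beside 0.48 for Cdc45, a part of the replicative helicase, and 0.40 for Cdt1, which helps to load that helicase. Limma called 0 of the S phase genes in either fit.

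Among genes of the DREAM complex and pocket proteins, 1 passed the test with 5 arrays and 0 with 6. Rbl2, which encodes the pocket protein p130 of the DREAM repressor, was at 8.19, 8.14 and 8.10 in knockout replicates 1, 2 and 3, against 9.07, 9.05 and 6.72 in wild-type replicates 1, 2 and 3. All 3 knockout arrays lay close together and below wild-type replicates 1 and 2, while wild-type replicate 3 was lower still. With 5 arrays Rbl2 fell by 0.91 on the log2 scale (SE 0.09, limma adjusted p = 0.0164), a 1.88-fold lower level, beside 0.729% of probe sets called lower. With 6 arrays the difference was -0.13 (limma adjusted p = 0.948). The 5-array call was lost without any of the other arrays except knockout replicate 2, at limma adjusted p between 0.0749 and 0.283 and differences between -0.89 and -0.94. Of the 7 other DREAM and pocket protein genes tested, 0 were called. Tfdp1, the dimerisation partner of E2F factors, differed by 0.44, E2f5 by -0.40 and Lin37 by -0.26 with 5 arrays. Any link between the level of Rbl2 and the members was not tested.

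Among CDK inhibitors, 0 of 5 tested genes were called. Cdkn1b, which encodes p27, a brake on cell cycle entry in resting T cells, was at 8.19, 8.45 and 8.18 in knockout against 8.73, 8.86 and 7.10 in wild type. It lay below wild-type replicates 1 and 2 on every knockout array, with a difference of -0.52 with 5 arrays (limma adjusted p = 0.0962) and 0.04 with 6. Cdkn1a, which encodes p21, an inhibitor induced by stress, was at 7.02, 7.31 and 6.47 in knockout against 6.16, 6.24 and 8.31 in wild type, where replicate 3 was the highest array. Its difference was 0.73 with 5 arrays and 0.03 with 6. Cdkn2c, an inhibitor of Cdk4 and Cdk6, differed by 0.25, and Cdkn1c by -0.11 with 5 arrays. Of 7 tested G1 cyclins and kinases, 5 were higher with 5 arrays and all 7 with 6, with medians of 0.12 and 0.53, and limma called 0. Ccnd1 and Ccnd3, which encode D-type cyclins that start the cycle, differed by 0.50 and 0.39, and Ccnd2 and Ccne1, a further D-type and an E-type cyclin, by -0.29 and 0.30 with 5 arrays.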

How the data were processed

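Total RNA from magnetically separated CD4+CD25+ Treg, isolated on columns and amplified, was hybridised to single-colour Affymetrix arrays, per the labels' protocols, 3 arrays for the knockout and 3 for wild type. The authors deposited log2 expression values made by RMA, per the submitters' processing notes. The sources used here give no software version and do not say which arrays were normalised together. Of 22690 probe sets, 64 controls were left out. The platform annotation gave 1 gene symbol to 20380 of the rest, several to 691 and none in 1555, and 20351 symbols were brought up to date through RefSeq gene IDs.

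Probe sets among the 40% with the lowest mean over 6 arrays (under 5.18) were left out, and 13575 were tested. The fit used lmFit and eBayes of limma 3.58.1 under R 4.3.3, with no term beside genotype, and p-values were adjusted by Benjamini and Hochberg's method over all tested probe sets (threshold 0.05). Intervals cover 95%. "With 5 arrays" means without wild-type replicate 3. The probe set brightest on average over 6 arrays stood for a gene. The fit was also run on simulated data whose arrays all had the same spread. Those data held no array that stood apart, so they do not show how the fit handles wild-type replicate 3. The arrays' small number limits the precision, and nothing in the labels says that the samples came from separate animals, so p-values measure the spread between these samples only.

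The members and all gene and marker lists were chosen with earlier results of these data known. Members named with the value of each array were the 14 with the smallest unadjusted p in the 5-array fit and, in any case, Mki67, Cdk1, Top2a, Plk1 and Birc5. Smc4 and Kif23 were added after their values had been seen. Up to 4 genes of each other cell cycle list, by the same p, and any that passed the threshold in either fit were named too. Pttg1, Zwint, Pkmyt1 and Cdc25b, lower with 5 arrays, were added after their values had been seen. Marker lists are given by their levels, with the genes that passed and, for granulocyte precursors, the 4 genes by that p. Elane, Ms4a3 and Foxp3 were picked from them after their values had been seen. Alternatives were other filters, normalisations, variance models, array quality weights, a replicate block, leaving out arrays, averaging probe sets and other thresholds. Promoter letters were searched in RefSeq windows of GRCm38.p6, and figures were drawn with matplotlib 3.10.9.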

Additional observations from a re-analysis of the deposited data

How the results depend on the processing

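Median differences of the members stayed positive under every alternative run, at 0.37 to 0.72 with 6 arrays and 0.24 to 0.51 with 5. Both lowest medians came from averaging the probe sets of a gene, against 0.59 and 0.39 with the brightest probe set. With that average, 29 of 34 members were higher with 6 arrays and 33 of 34 with 5. Leaving out 1 array gave 0.39 to 0.72 with 6 arrays and 0.26 to 0.49 with 5. Centring each array on its median moved the 6-array median of all tested probe sets to 0.00, against 0.15, and that of the members to 0.44, with 32 of 35 higher.

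Counts of called members depended on how 2 arrays were treated. With array quality weights limma called 22 members with 6 arrays, beside 17.1% of all probe sets, and 32 with 5 arrays, beside 27.9%. With knockout replicate 2 and wild-type replicate 3 both left out it called 28. Leaving out 1 array called 0 to 0 members with 6 arrays and 0 to 28 with 5, where 28 came without knockout replicate 2. With 5 arrays, median centring called 1 member, Mki67 (limma adjusted p = 0.0486), an adjusted p under 0.1 called 3, and a 1.5-fold difference or more at an unadjusted p under 0.05 called 3, against 6 with 6 arrays. Calls over all probe sets were 14 with 6 arrays, 190 with 5 and 2537 with 4, and 2323 and 3783 with weights on 6 and 5 arrays. Leaving out 1 array gave 0 to 190 with 6 arrays and 18 to 2537 with 5. With 5 arrays 779 had an adjusted p under 0.1, and 889 with 5 arrays and 524 with 6 had an unadjusted p under 0.05 with a 1.5-fold difference. Without the filter, 6 arrays gave 8. The cause was not tested.

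With 6 arrays Cdkn1b, at 0.04, turned to -0.21 after quantile normalisation, -0.10 after median centring, -0.64 with weights, -0.04 without knockout replicate 2, -0.52 without wild-type replicate 3, -0.61 without both and -0.39 as a mean of probe sets. Cenpf turned to -0.084 as a mean of probe sets. Rbl2 turned to 0.26 and 0.25 without wild-type replicates 1 and 2. With 5 arrays Rbl2 lost its call at -0.94 and -0.89 without knockout replicates 1 and 3, and at -0.90 and -0.92 without wild-type replicates 1 and 2. Its 6-array value of -0.13 became -0.91 without wild-type replicate 3.

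Whether replicate numbers pair the samples is not given in the labels. Deviations from the group mean correlated at 0.16, -0.12 and -0.14 for same-numbered arrays, and between -0.21 and 0.19 for the others. With so few arrays, and wild-type replicate 3 standing apart, these values cannot decide the question. With the replicate number as a block, limma called 0 members with 6 arrays (median 0.59) and 0 with 5 (median 0.36, where knockout replicate 3 has no partner), and 10 and 561 probe sets in all.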

Other observations

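Probe sets of a member did not always give the same sign. Of 15 members with several tested probe sets, 4 (Cenpf, Kif22, Kif2c and Tacc3) had probe sets of opposite sign with 6 arrays, and 2 (Kif2c and Tacc3) with 5 arrays. For Smc4, the 1 member lower in knockout with 5 arrays, all 3 probe sets had the same sign.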
